A study of Mus musculus with 14 samples.

Results

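The ribosome biogenesis factors are a module of 36 genes whose products build ribosomes, taken by gene symbol from the 24411 genes counted in each kidney library. The selection is a list of symbols and sets no threshold on a measured value, but it was made with earlier results of these data known. All 36 were abundant enough to be tested, among 14300 genes that passed the filter on low counts. The libraries are bulk RNA sequencing of whole kidney from male C57/B6 mice aged 8 weeks, collected at day 0 (n = 4), day 1 (n = 5) or day 3 (n = 5) in a study of renal ischemia/reperfusion injury (IRI). Library names call the day 0 samples controls, and the sources used here do not state whether these mice had a sham operation. No transgene, diet or drug is listed for any of the 14 libraries. Nothing in the labels ties a library to an animal, so the p-values measure only the spread between these libraries, which may be partly technical.

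Ribosome assembly starts in the nucleolus, where RNA polymerase I (Pol I) transcribes a long precursor ribosomal RNA. Small nucleolar ribonucleoproteins (snoRNPs) guide chemical modification of that precursor, and further factors cleave it and fold it into the small and large subunits. The genes for these factors are textbook targets of the transcription factor Myc, and ribosome production is one of the main energy costs of a cell preparing to grow.

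The sequences upstream of the members are shown first, with a search for the E-box, which Myc binds with its partner Max. A link between these letters and the members' levels was not tested. RefSeq windows of 300 bases around the annotated start (build GRCm38.p6) were matched for 31 of the 36 members. The letters CACGTG, which read the same on both strands, were searched on their own, with no other motif. They occurred in the windows of 7 members (22.6%), in 8.09% of the windows of all 27025 genes and in 11.4% of those of 10827 tested genes. The median GC content was 59.3% in the members' windows, 52.7% over all genes and 60.7% over tested genes. A match is a stretch of letters and not a measured binding site.

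Nop2 was the only member with the letters before its annotated start, beginning at position -60 counted from that start. Its upstream 250 bases are printed with those of Gar1, among the members that rose most at day 1, and Ncl, the member with the highest mean level. Neither of the other two windows held the letters, which says only that they are not in this stretch. Capitals mark CACGTG.
Nop2, chr6:125131633-125131882, plus strand: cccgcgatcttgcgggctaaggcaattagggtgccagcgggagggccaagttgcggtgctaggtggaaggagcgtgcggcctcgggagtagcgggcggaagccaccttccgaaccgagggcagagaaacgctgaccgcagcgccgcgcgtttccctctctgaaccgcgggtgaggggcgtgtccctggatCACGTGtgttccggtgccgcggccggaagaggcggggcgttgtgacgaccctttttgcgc
Gar1, chr3:129831397-129831646, minus strand: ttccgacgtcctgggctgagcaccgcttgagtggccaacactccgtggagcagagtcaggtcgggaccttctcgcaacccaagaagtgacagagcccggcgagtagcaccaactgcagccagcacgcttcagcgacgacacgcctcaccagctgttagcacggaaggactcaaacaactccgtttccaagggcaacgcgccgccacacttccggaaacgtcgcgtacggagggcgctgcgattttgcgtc
Ncl, chr1:86359456-86359705, minus strand: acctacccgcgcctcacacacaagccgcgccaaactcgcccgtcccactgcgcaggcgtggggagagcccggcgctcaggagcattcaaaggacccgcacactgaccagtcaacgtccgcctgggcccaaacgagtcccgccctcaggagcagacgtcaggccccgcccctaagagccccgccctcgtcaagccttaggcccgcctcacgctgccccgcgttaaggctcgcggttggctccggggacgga

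In the other 6 members with a match, the letters lay in the first bases after the annotated start. Short stretches around each match are printed, since these members differed in their response: Wdr43, Tsr1, Mybbp1a, Pes1 and Ltv1 rose at day 1, whereas Utp20 was below day 0 in every day 1 library. Capitals again mark the motif.
Wdr43, chr17:71616220-71616249, plus strand: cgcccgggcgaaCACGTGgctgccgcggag
Tsr1, chr11:74898092-74898121, plus strand: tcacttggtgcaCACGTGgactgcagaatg
Mybbp1a, chr11:72441347-72441376, plus strand: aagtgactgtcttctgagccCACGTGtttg
Pes1, chr11:3963965-3963994, plus strand: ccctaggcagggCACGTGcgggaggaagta
Ltv1, chr10:13193092-13193121, minus strand: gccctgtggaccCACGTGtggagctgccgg
Utp20, chr10:88826765-88826794, minus strand: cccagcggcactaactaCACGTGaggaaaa

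A further feature lay in the gene bodies of some members. On the GENCODE annotation of GRCm38, 7 members (19.4%) held at least 1 small nucleolar RNA gene on the same strand within their bounds, compared with 1.68% of 13295 tested protein-coding genes. These hosts were Ncl, Nop56, Nop58, Dkc1, Wdr43, Tsr1 and Gnl3. Nop56 (chr2:130274430-130279313, plus strand) held 5, and Nop58 (chr1:59684971-59719044, plus strand) held 4. Whether reads of a hosted small RNA entered the count of its host was not tested.

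The module was higher in every day 1 library than in any day 0 library. Levels are given as CPM, the read count relative to the library's total on genes, scaled between libraries by the trimmed mean of M values (TMM). Summed over the 36 members, the level was 1566, 1646, 1610 and 1536 CPM in day 0 replicates 1 to 4. It was 2978, 3031, 2585, 3110 and 3122 CPM in day 1 replicates 1 to 5, and 1953, 2393, 1820, 2128 and 2449 CPM in day 3 replicates 1 to 5. The 3 days did not overlap in this sum. Day 3 lay between the other days in every library, and the means were 1589 ± 48.4 (SD, n = 4), 2965 ± 221 (n = 5) and 2148 ± 272 CPM (n = 5). The sum weighs abundant members such as Ncl and Npm1 most. With each member's log2 CPM scaled alike, the average was -0.68, -0.61 and -0.58 in day 3 replicates 1, 3 and 4. These lay within the day 0 range of -0.87 to -0.55, and replicates 2 and 5 (0.23 and 0.08) lay above it. As log2 CPM minus the day 0 mean, the median member stood at -0.03 to 0.07 at day 0 and 0.09 to 0.48 at day 3.

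Gene by gene, 28 of 36 members passed edgeR's quasi-likelihood test as higher at day 1 than at day 0 and 0 as lower, at an adjusted p under 0.05. Over all tested genes 23.3% were called higher and 18.7% lower. At an unadjusted p under 0.05, 29 members were higher and 1 was lower, counts for which no all-gene share is given here. DESeq2 called 29 higher and 0 lower, beside 25.7% and 21% of all genes. The median log2 fold change was 0.76 over the members and 0.01 over all genes. Every day 1 library exceeded every day 0 library for 29 members, against 21.5% of all genes, and 1 member lay wholly below, against 20.5%. The mean CPM was over 1.5 times that of day 0 for 25 members and over 2 times for 16. In bulk tissue, fewer cells of a type and less RNA per cell cannot be told apart.

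At day 3, 10 of 36 members were called higher than at day 0 and 0 lower, where 19.5% of all genes were called higher and 13.8% lower. At an unadjusted p under 0.05 these counts were 15 and 0, again without an all-gene share. DESeq2 called 12 and 0, beside 21.3% and 17.3% of all genes. The median log2 fold change was 0.28, beside 0.05 over all genes. The 10 were Ncl, Npm1, Ddx21, Polr1c, Gar1, Noc4l, Wdr43, Pes1, Gnl3 and Rrp1b. Libraries of the days did not overlap for 9 members, all above day 0, against 16.9% of all genes. The comparisons of day 1 and of day 3 share the same 4 control libraries. The day 3 count rested on few libraries: it was 4, 6, 5 and 5 without day 0 replicates 1, 2, 3 and 4 in turn, and 4 without day 3 replicate 5. All genes called higher in those fits were 13.9%, 14.4%, 13.8%, 15.5% and 15.2%, so these member counts were near or below the all-gene share. Wdr43 lost its call in 14 of 26 alternative settings and Gnl3 in 3.

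Between the days after injury, 21 of 36 members were lower at day 3 than at day 1 and 0 were higher, where 7.39% of all genes were called lower and 8.52% higher. No member was called higher at an unadjusted p under 0.05 or by DESeq2 either, where DESeq2 called 11.3% of all genes higher. For 16 members the day 3 libraries lay wholly below the day 1 libraries, against 3.47% of all genes. The median log2 difference was -0.63, beside 0.02 over all genes. The day 1 mean was the highest of the 3 day means for 35 members, among them Noc3l, Polr1a and Bop1, whose day 1 fold changes turned sign under some settings, and 25 followed the order day 1, day 3, day 0. The count of lower members was 10 without the 3 libraries in which the precursor rRNA gene Rn45s took over 0.8% of the reads, where 1.69% of all genes were called lower.

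**Figure D1:**
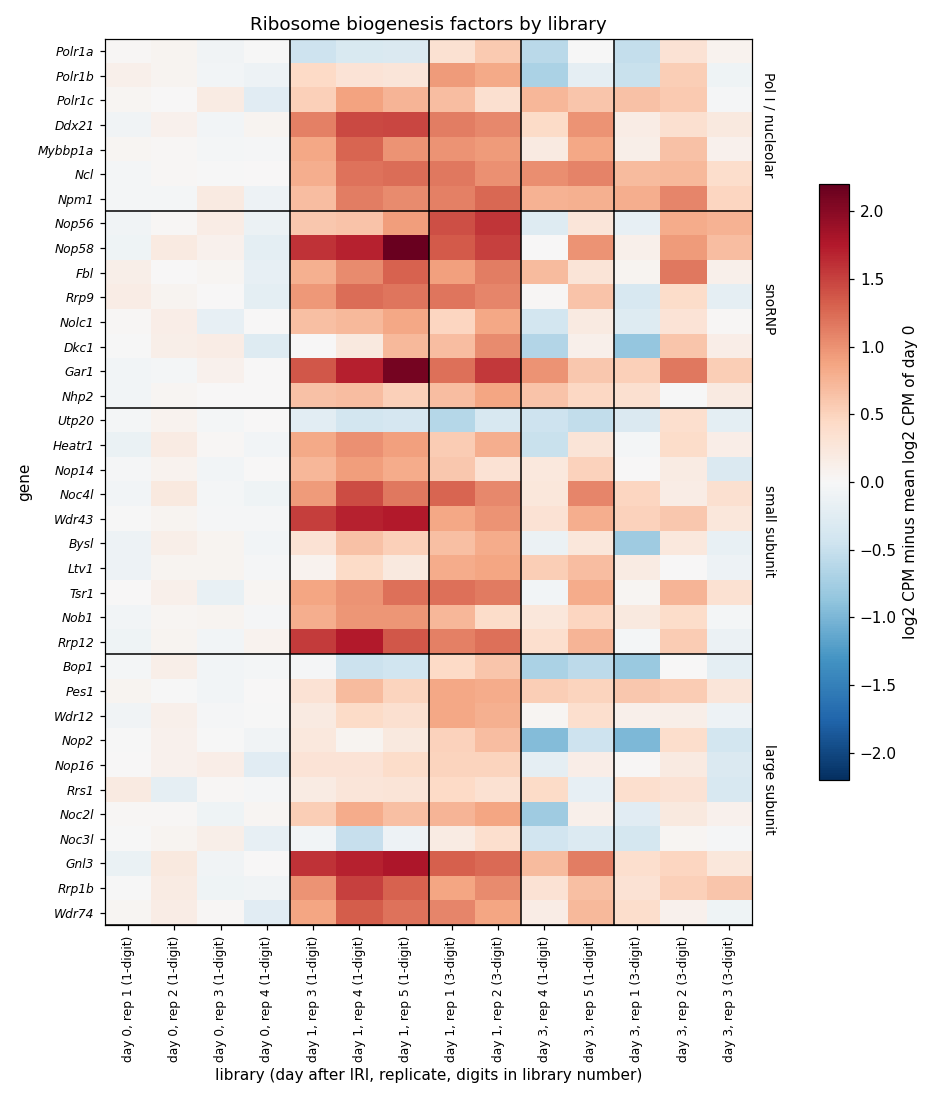
Log2 CPM of each of the 36 members (rows, grouped by role) in each of the 14 libraries (columns, by day and by the digits in the library number), minus the mean log2 CPM of day 0. Red, for values above day 0, fills most of the 5 day 1 columns and is paler at day 3, and the rows of Polr1a, Utp20, Bop1 and Noc3l do not follow it.

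The group of Pol I subunits and abundant nucleolar proteins rose in 5 of its 7 members at day 1 and in 4 at day 3, where 23.3% and 19.5% of all genes were called higher. Ncl, nucleolin, an abundant RNA-binding protein that helps fold precursor rRNA, stood at 284, 299, 291 and 296 CPM at day 0. It was at 654, 585, 511, 667 and 690 CPM in the day 1 libraries and 474, 480, 383, 595 and 627 CPM in the day 3 libraries. Neither injured day overlapped day 0. The log2 fold change was 1.09 ± 0.16 (SE, edgeR adjusted p = 0.000186) at day 1 and 0.81 ± 0.15 (edgeR adjusted p = 0.00172) at day 3.

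Npm1, nucleophosmin, a nucleolar chaperone, read 192, 193, 227 and 183 CPM at day 0, 427, 476, 316, 430 and 405 CPM at day 1 and 343, 418, 274, 338 and 341 CPM at day 3. It too was above day 0 in all injured libraries. Its log2 fold changes were 1.05 ± 0.15 (edgeR adjusted p = 0.000193) and 0.79 ± 0.15 (edgeR adjusted p = 0.00166). Npm1 has processed copies in the genome, so reads shared with them may be lost or misplaced in its count. Per kilobase of annotated exon, Npm1 had 74.6 CPM per kb at day 0 and 154 at day 1, and Ncl had 28.7 and 61.0.

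Ddx21, a nucleolar RNA helicase, had a mean of 62.4 ± 3.77 CPM (SD, n = 4) at day 0, 149 ± 21.6 (n = 5) at day 1 and 85.6 ± 21.6 (n = 5) at day 3. Its log2 fold change was 1.25 at day 1 and 0.46 at day 3, both called, with edgeR adjusted p = 0.000116 and 0.047. Mybbp1a, a nucleolar Myb-binding protein, rose by 1.02 at day 1 on the log2 scale, and its 0.41 at day 3 was not called, although no day 3 library overlapped day 0.

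Of the polymerase subunits, 1 was called at day 1. Polr1c, which Pol I shares with Pol III, rose by 0.64 at day 1 and 0.52 at day 3 on the log2 scale. Polr1b, the second largest subunit, had a log2 fold change of 0.59 ± 0.23 at day 1, with an edgeR adjusted p = 0.0534, although no day 1 library overlapped day 0. Polr1a, the largest subunit, was at 34.0, 35.0, 31.9 and 33.1 CPM at day 0 and at 42.5, 49.98, 24.2, 26.6 and 26.8 CPM at day 1. Its day 1 libraries lay on both sides of day 0: replicates 1 and 2 above, replicates 3, 4 and 5 below. Its day 3 values were 23.3, 41.7, 35.5, 22.0 and 33.3 CPM, and neither fold change, 0.02 ± 0.23 nor -0.10 ± 0.23, was called.

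**Figure D2:**
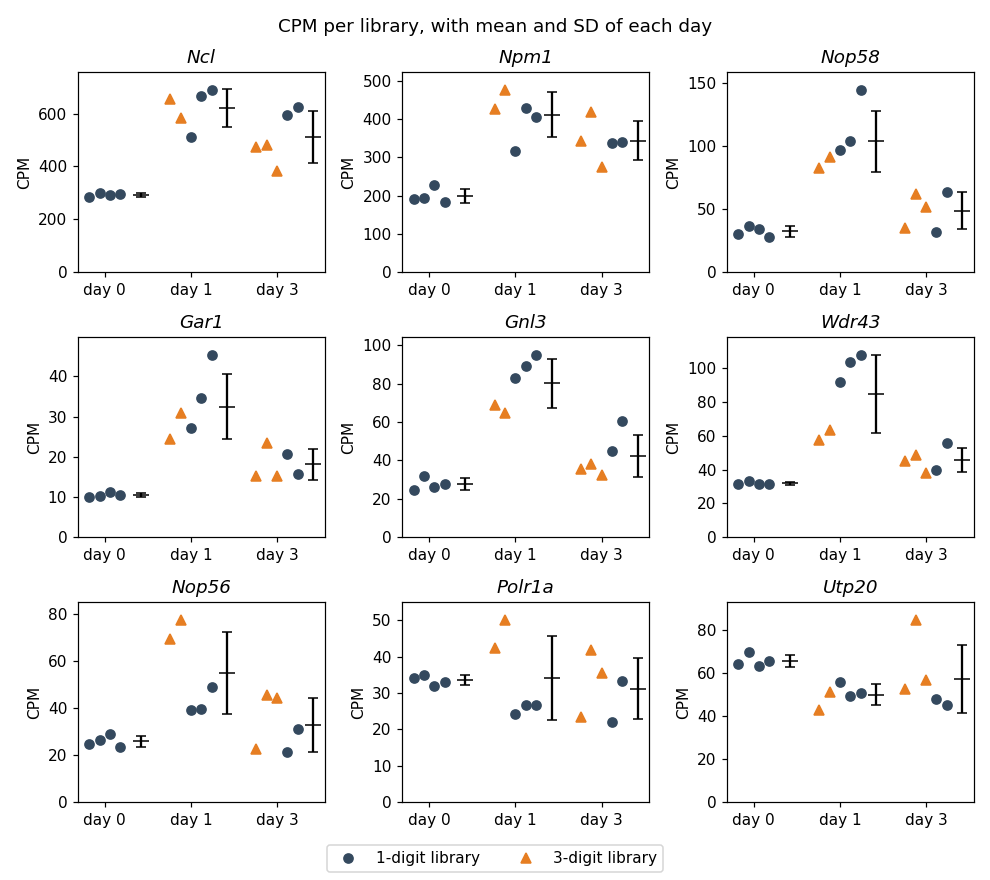
CPM of 9 members in each library (points: circles for 1-digit, triangles for 3-digit library numbers) by day, with the mean and SD of each day beside them on a linear axis from 0. Ncl, Npm1, Nop58, Gar1, Gnl3, Wdr43 and Nop56 at day 1 lie above all day 0 libraries, Polr1a separates by the number format at day 1, and Utp20 at day 1 lies below day 0.

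Among the snoRNP proteins, 7 of 8 rose at day 1, beside 23.3% of all genes, and 1 at day 3, beside 19.5%. The box C/D class carries methylation of rRNA through Nop56, Nop58 and the methyltransferase fibrillarin (Fbl), and the box H/ACA class carries pseudouridylation through dyskerin (Dkc1), Gar1 and Nhp2. Nop58 had the largest log2 fold change of the module at day 1. It was at 30.1, 36.8, 34.2 and 27.6 CPM at day 0, at 82.0, 91.1, 96.6, 104 and 144 CPM at day 1 and at 34.6, 61.5, 51.5, 32.1 and 63.2 CPM at day 3. All day 1 libraries were more than 2 times the highest day 0 library, and day 3 overlapped day 0. The log2 fold change was 1.68 ± 0.23 (edgeR adjusted p = 0.000119) at day 1 and 0.59 ± 0.22 (edgeR adjusted p = 0.0509) at day 3, and the day 3 value was called in 9 of 26 alternative settings.

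Its partner Nop56 read 24.5, 26.4, 29 and 23.6 CPM at day 0 and 69.4, 77.3, 39.1, 39.8 and 49.1 CPM at day 1. Day 3 gave 22.7, 45.4, 44.2, 21.2 and 31.2 CPM. The day 1 fold change was 1.09 ± 0.26 on the log2 scale (edgeR adjusted p = 0.00533), carried most by replicates 1 and 2. At day 3 it was 0.35 ± 0.26 and not called. Fbl rose by 1.04 at day 1, and its 0.52 at day 3 had an edgeR adjusted p = 0.063.

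Gar1, the H/ACA protein whose upstream sequence is printed above, was the member with the smallest adjusted p at day 1. Its levels were 10.1, 10.2, 11.1 and 10.5 CPM at day 0, 24.5, 31.0, 27, 34.6 and 45.3 CPM at day 1 and 15.2, 23.4, 15.3, 20.8 and 15.8 CPM at day 3. The 3 days did not overlap. The log2 fold change was 1.63 ± 0.20 (edgeR adjusted p = 5.16e-05) at day 1 and 0.79 ± 0.19 (edgeR adjusted p = 0.00692) at day 3.

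Nhp2, of the same particle, was at 58.6, 63.2, 62.0 and 61.5 CPM at day 0, 97.9, 112, 95.4, 97.7 and 87.8 CPM at day 1 and 77.9, 60.9, 70.4, 94.4 and 84.3 CPM at day 3. Its log2 fold changes were 0.68 ± 0.13 (edgeR adjusted p = 0.00115) and 0.34 ± 0.13 (edgeR adjusted p = 0.0536). Dkc1, the pseudouridine synthase itself, was the only snoRNP member not called at day 1, with 0.57 ± 0.28 (edgeR adjusted p = 0.116). Rrp9, a box C/D protein, and Nolc1, a snoRNP chaperone, rose by 1.13 and 0.71 at day 1, and both were lower at day 3 than at day 1, by -0.99 and -0.73.

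The small subunit factors rose in 9 of 10 members at day 1 (23.3% of all genes) and in 2, Noc4l and Wdr43, at day 3, a share near the 19.5% of all genes. Of the 10, 8 were lower at day 3 than at day 1, beside 7.39% of all genes. Wdr43, a component of the early small subunit processome, was at 31.7, 33.3, 31.4 and 31.4 CPM at day 0, 57.7, 63.7, 91.9, 104 and 108 CPM at day 1 and 45.2, 48.4, 38.0, 40.0 and 55.9 CPM at day 3. The days did not overlap. Its log2 fold change was 1.41 ± 0.19 (edgeR adjusted p = 0.000116) at day 1 and 0.51 ± 0.19 (edgeR adjusted p = 0.0472) at day 3.

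Rrp12, which takes part in subunit export, rose as much as Wdr43 at day 1, by 1.41 ± 0.19 on the log2 scale, and was at 0.34 ± 0.19 at day 3. Its mean was 14.5 ± 0.879 CPM (SD, n = 4), 38.7 ± 6.98 (n = 5) and 18.4 ± 4.80 (n = 5) at days 0, 1 and 3. Noc4l, a partner of Nop14, rose by 1.19 and 0.50, and Nop14 by 0.69 at day 1. Tsr1 and Ltv1, late factors of the cytoplasmic precursor particle, rose by 1.09 and 0.52 at day 1, and Nob1, the nuclease of the last cut, by 0.79. Heatr1 and Bysl rose by 0.82 and 0.60.

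Utp20, a large scaffold of the processome, went the other way. Its levels were 63.9, 69.5, 63.4 and 65.7 CPM at day 0 and 42.5, 51.3, 55.9, 49.4 and 50.5 CPM at day 1. At day 3 they were 52.4, 84.4, 56.8, 47.7 and 45 CPM. Every day 1 library lay below day 0, while at day 3 replicate 2 lay above it. The log2 fold change at day 1 was -0.39 ± 0.16 with an edgeR adjusted p = 0.0625, not called, and across alternative settings the adjusted p ran from 0.00978 to 0.132.

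Large subunit factors rose in 7 of 11 members at day 1 (23.3% of all genes) and in 3, Pes1, Gnl3 and Rrp1b, at day 3 (19.5% of all genes). Gnl3, nucleostemin, a nucleolar GTPase abundant in stem and dividing cells, was at 24.7, 32.0, 26.0 and 27.4 CPM at day 0. It was at 68.6, 64.8, 83.1, 88.9 and 94.8 CPM at day 1 and at 35.4, 37.9, 32.6, 44.7 and 60.3 CPM at day 3. The days did not overlap. Its log2 fold change was 1.54 ± 0.19 (edgeR adjusted p = 5.38e-05) at day 1 and 0.61 ± 0.18 (edgeR adjusted p = 0.0188) at day 3.

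Pes1, Bop1 and Wdr12 form one complex, PeBoW, needed for processing the large subunit rRNA. Pes1 was at 62.5, 59.8, 57.5 and 60.1 CPM at day 0, 109, 106, 75.1, 96.7 and 84.3 CPM at day 1 and 90.5, 88.0, 72.5, 87.8 and 83.9 CPM at day 3. It rose by 0.65 ± 0.12 (edgeR adjusted p = 0.00122) and 0.49 ± 0.12 (edgeR adjusted p = 0.0081) on the log2 scale, with no overlap with day 0. Wdr12 rose by 0.55 ± 0.15 at day 1 (edgeR adjusted p = 0.0114) and was at 0.12 ± 0.15 at day 3.

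Bop1 was at 41.0, 46.4, 40.8 and 41.3 CPM at day 0, 57.4, 64.7, 41.7, 30.4 and 31.2 CPM at day 1 and 23.9, 42.5, 36.5, 26.1 and 28.3 CPM at day 3. Day 1 replicates 1 and 2 were above day 0 and replicates 4 and 5 below it. Its fold changes of 0.09 ± 0.23 and -0.43 ± 0.23 were not called.

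Nop2, the rRNA methyltransferase with the upstream E-box letters, read 34.3, 36.8, 34.3 and 32.5 CPM at day 0, 49.2, 54.9, 40.6, 36.1 and 40.0 CPM at day 1 and 17.3, 45, 26.1, 17.8 and 25.1 CPM at day 3. At day 3, replicate 2 was above day 0 and every other library below it. Neither 0.36 ± 0.24 nor -0.39 ± 0.24 was called, while the drop from day 1 to day 3, -0.75 ± 0.22, was (edgeR adjusted p = 0.0367). The day 3 fold change against day 0 was called in 4 of 26 alternative settings. It ran from -0.67 to -0.27 when 1 library was left out. Noc3l, a factor of early pre-ribosomes, was at 14.3 ± 1.29 CPM (SD, n = 4) at day 0, 14.3 ± 3.19 (n = 5) at day 1 and 12.3 ± 1.85 (n = 5) at day 3, with no call. Rrs1 was not called either, at 0.30 ± 0.16 and 0.14 ± 0.16.

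Rrp1b and Wdr74 rose by 1.16 and 1.08 at day 1, Noc2l by 0.73 and Nop16 by 0.39. The 8 members not called at day 1 were thus Polr1a, Polr1b, Dkc1, Utp20, Bop1, Nop2, Rrs1 and Noc3l. The fold changes of Noc3l, Polr1a and Bop1 at day 1 changed sign under some settings, so no direction is given for them.

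**Figure D3:**
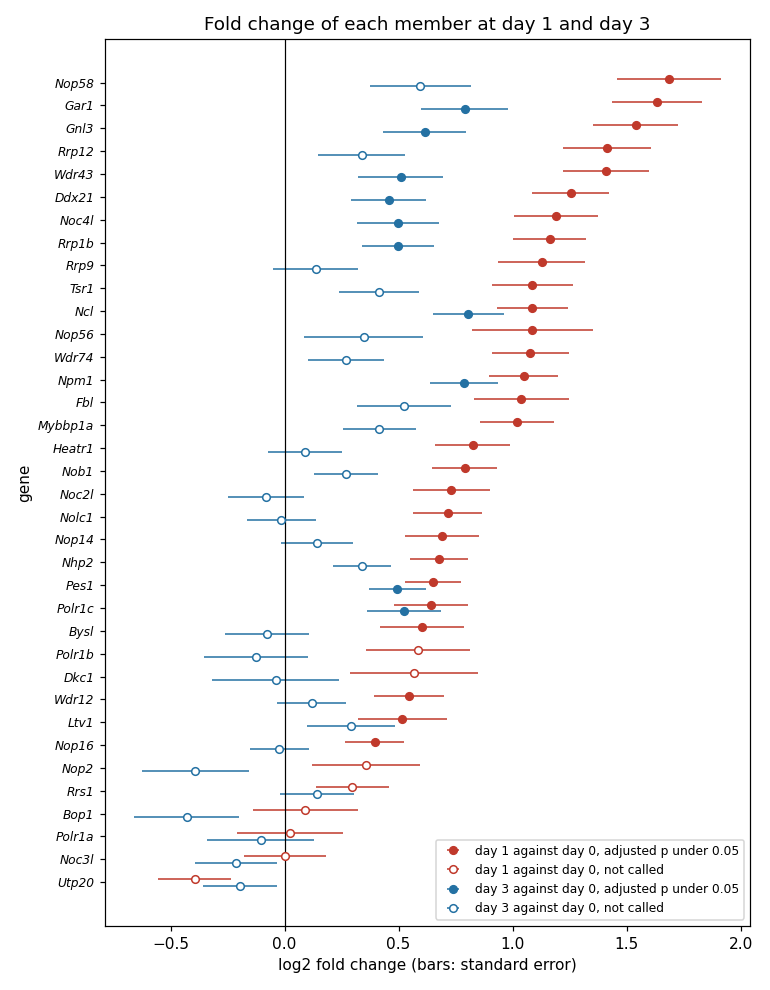
Log2 fold change against day 0 for each of the 36 members at day 1 (red) and day 3 (blue), ordered by the day 1 value, with bars for the standard error and filled points for an edgeR adjusted p under 0.05. The 28 filled red points run from 0.39 (Nop16) to 1.68 (Nop58), and the 10 filled blue points all lie at or under 0.81.

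The median coefficient of variation over the 36 members was 7.57% at day 0, 14.9% at day 1 and 24.3% at day 3. Days 1 and 3 pool both library number formats described further on, and within a format the median was 12.2% (1-digit, n = 3) and 7.71% (3-digit, n = 2) at day 1 and 20.4% (n = 2) and 20.5% (n = 3) at day 3. The highest library of the 14 was a day 1 library for 35 members and day 3 replicate 2 for the remaining one, Utp20.

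Across the 14 libraries the members' levels were mostly alike. Over the 630 pairs of members the median Pearson r of log2 CPM was 0.68, from -0.80 to 0.99, as a description over libraries that share the 3 days. Tsr1, Rrp9 and Mybbp1a were closest to the mean of the other members, with r of 0.96, 0.96 and 0.95. Utp20 was farthest, at -0.47, followed by Noc3l at 0.19, Polr1a at 0.23 and Bop1 at 0.31. Of genes outside all lists, Gpatch4 (r = 0.98), Grwd1 (0.98) and Cct5 (0.97) had the pattern most like the members' mean over the 14 libraries.

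The rest of the assembly pathway, 123 further factors of Pol I, the snoRNPs, both subunits and the RNA exosome, rose in most members at day 1 with a smaller median. At day 1, 84 of 123 were called higher and 2 lower, beside 23.3% and 18.7% of all genes, with a median log2 fold change of 0.56. At day 3, 20 were higher and 6 lower, with a median of 0.10, and against day 1, 1 was higher and 49 lower at day 3, beside 8.52% and 7.39% of all genes. The 20 higher at day 3 were near the 19.5% of all genes and became 37 with total counts without TMM, 42 with number format as a term and 46 with only 1-digit libraries after injury, where all genes called higher were 25.3%, 26.2% and 30.6%. The 6 lower became 1, 14 and 13, beside 9%, 22% and 25.7%. Leaving out 1 library gave 11 to 22 higher, with 11 without day 0 replicate 1 or 3 and 12 without day 3 replicate 5, where 13.9%, 13.8% and 15.2% of all genes were higher. It gave 1 to 7 lower, with 1 without day 0 replicate 3 and 3 without day 0 replicate 1, 2 or 4 or day 3 replicate 1 or 4. The 49 became 25 with total counts, 21 with only the compared days and 12 without the libraries high in Rn45s, where 3.41%, 2.5% and 1.69% of all genes were lower. By role, and beside the same 23.3% of all genes, 5 of 12 other Pol I genes rose at day 1, 8 of 10 snoRNP assembly genes, 29 of 43 small subunit genes, 36 of 44 large subunit genes and 6 of 14 exosome genes. The list was chosen, like the members, with earlier results of these data known.

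Among these, Eif6, which keeps the subunits apart until the large one is mature, had the highest day 1 value, 2.19 ± 0.23 (edgeR adjusted p = 2.38e-05), with 1.39 ± 0.22 at day 3. Ppan, a large subunit factor, rose by 1.72 ± 0.20 at day 1. Taf1d, a subunit of the Pol I selectivity factor, rose by 2.03 ± 0.41 and 1.57 ± 0.40, whereas Ubtf, which opens the rRNA gene promoter, was at -0.15 ± 0.13 and 0.21 ± 0.14 with no call. Rrn3, which recruits the polymerase, rose by 0.49 ± 0.11 at day 1. Skiv2l2, the exosome's helicase, fell by 0.81 at day 1 and by 0.89 at day 3, and Ttf1, which terminates Pol I transcription, fell by 0.91 at day 1.

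Myc was at 9.37, 6.71, 5.75 and 5.44 CPM at day 0, 82.8, 71.6, 56.8, 56.6 and 60.9 CPM at day 1 and 10.4, 26.7, 18.2, 15.3 and 26.1 CPM at day 3. The 3 days did not overlap, and its order of days was that of the summed members. Its log2 fold change was 3.27 ± 0.28 (edgeR adjusted p = 5.22e-06) at day 1 and 1.5 ± 0.27 (edgeR adjusted p = 0.00107) at day 3. Its partner Max rose by 0.82 ± 0.21 at day 1. Of the Max partners that oppose Myc, Mxi1 fell by 0.88 at day 1 and by 0.72 at day 3, Mxd4 fell by 0.62 at day 1, and Mnt rose by 0.52 at day 1. In all, 3 of 11 genes of this network rose and 3 fell at day 1, shares near the 23.3% and 18.7% of all genes. Whether Myc moved the members was not tested.

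The ribosomal proteins themselves stayed high at day 3. Of 77 cytosolic ribosomal protein genes, 72 rose and 0 fell at day 1, beside 23.3% and 18.7% of all genes, and 70 rose and 0 fell at day 3, beside 19.5% and 13.8%. Pooled over both library number formats, the median log2 fold change was 0.79 on both days. At day 3 against day 1, edgeR called 0 in either direction, beside 8.52% of all genes higher and 7.39% lower. At an unadjusted p under 0.05, 0 were higher and 2 lower. By DESeq2 0 were higher and 2 lower, beside 11.3% and 11.8% of all genes. The medians within the formats had opposite signs from day 1 to day 3. Among 1-digit libraries the median log2 difference was 0.25, with 9 called higher and 0 lower, beside 16.5% and 15.5% of all genes. The 9 became 47 with total counts without TMM and 3 without day 1 replicate 3. In those fits 25.8% and 13.4% of all genes were higher. Among 3-digit libraries the median was -0.25, with 0 higher and 3 lower, beside 6.41% of all genes called lower. The 3 became 24 without day 3 replicate 1 and 0 without day 3 replicate 2 or 3, where 8.01%, 5.32% and 3.9% were lower. With only 1-digit libraries after injury in the fit 13 were higher, beside 18% of all genes, and with only 3-digit ones 2 were lower, beside 7.58%. Rpl12 rose by 1.19 and 1.42 and Rplp0 by 1.1 at day 3. Many ribosomal protein genes have processed copies elsewhere in the genome, so their counts of uniquely placed reads are uncertain. The difference in course between these genes and the members was not tested.

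**Figure D4:**
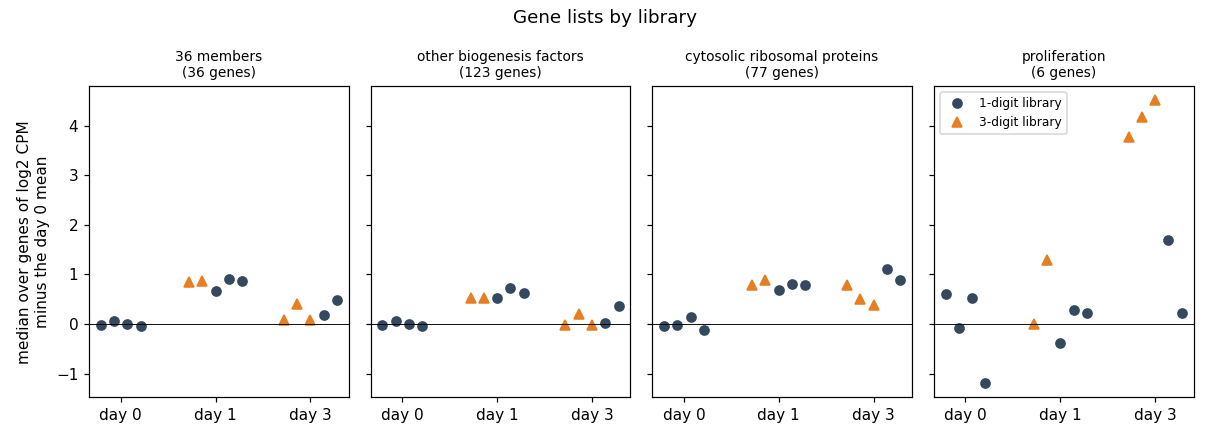
For each library (points by day, circles for 1-digit and triangles for 3-digit library numbers), the median over a gene list of log2 CPM minus the day 0 mean, for the 36 members, 123 other biogenesis factors, 77 cytosolic ribosomal proteins and 6 proliferation markers. The members stand at 0.67 to 0.91 at day 1 and 0.09 to 0.48 at day 3, the ribosomal proteins at 0.39 to 1.11 at day 3, and the proliferation markers are highest, 3.77 to 4.51, in the 3-digit libraries of day 3.

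Rn45s, the gene model for the precursor rRNA, gives the product these factors process. It took 0.333% to 0.472% of reads on genes in 11 libraries and 1.39%, 1.24% and 0.854% in day 1 replicate 5, day 3 replicate 2 and day 3 replicate 4. Neither day differed from day 0 by edgeR, at 0.37 ± 0.47 (adjusted p = 0.542) and 0.46 ± 0.47 (adjusted p = 0.471). How rRNA was removed before sequencing is not given in the sources used here, so the share of Rn45s is not a measure of rRNA made.

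The deposited names number the libraries in a pair of formats. All 4 day 0 libraries, replicates 3 to 5 of day 1 and replicates 4 and 5 of day 3 have a 1-digit number, and the others a 3-digit number. The sources do not say what this format stands for. It went with large differences in cell markers. The summed level of 8 proximal tubule markers was 13001 to 14261 CPM at day 0. At day 1 it was 8141 to 12727 CPM in the 1-digit and 2778 to 3439 CPM in the 3-digit libraries, and at day 3 the order turned, with 1828 to 2969 and 5091 to 11016 CPM.

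The summed members overlapped between the formats on both days. Their mean was 2939 ± 307 CPM (SD, n = 3) in the 1-digit and 3005 ± 37.7 CPM (n = 2) in the 3-digit libraries of day 1, and 2288 ± 227 (n = 2) and 2055 ± 300 CPM (n = 3) at day 3. Within the 1-digit libraries, 26 of 36 members were higher at day 1 than at day 0 and 0 were lower, where 28.9% of all genes were called higher and 29.6% lower. With only the 1-digit or only the 3-digit libraries of the injured days in the fit, 29 and 30 members were called higher at day 1, beside 31.4% and 23% of all genes, and 1 and 0 lower. Day 0 holds 1-digit libraries only. The 30 thus set 3-digit against 1-digit libraries, and day and format cannot be told apart there.

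The day 3 counts were less even between formats. Among 1-digit libraries, 15 members were higher at day 3 than at day 0 and 2, Utp20 and Bop1, were lower, where 28.6% and 25.1% of all genes were called. Without day 3 replicate 5 the count of called members fell from 17 to 9, with 8 higher and 1 lower, beside 18.4% and 17.8% of all genes. With only 1-digit libraries of the injured days in the fit 17 members were called higher and 3 lower, beside 30.6% and 25.7% of all genes, so the 20 called were at the all-gene share of 56.3%. With only 3-digit ones 8 were called higher and 0 lower, beside 19.4% and 14.8%, again against day 0 libraries of the 1-digit format. From day 1 to day 3, 16 members fell within the 1-digit libraries (15.5% of all genes were called lower) and 18 within the 3-digit libraries (6.41%). The 16 became 5 without day 3 replicate 4, where 9.22% of all genes were lower, and the 18 became 2 and 7 without day 1 replicates 1 and 2, where 0.734% and 2.59% were.

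Few members were called different between formats within a day, in groups of 2 and 3 libraries. More did not overlap: 13 members lay above and 7 below in the 3-digit libraries of day 1. At day 3 these counts were 1 and 6, and no all-gene share of them is given here. At day 1, 5 were higher in the 3-digit libraries, Polr1a by 0.84, Bop1 by 0.83, Nop56 by 0.78, Ltv1 by 0.59 and Wdr12 by 0.49 on the log2 scale, where 18.6% of all genes were called higher. Wdr43 and Gnl3 were lower, at -0.74 and -0.41, where 16.4% of all genes were called lower. Gnl3 lost its call in 11 of 21 alternative settings. The 7 calls rest on 2 libraries of the 3-digit format, and a fit without day 1 replicate 1 or 2 leaves 1 of them. Those of Bop1 and Polr1a were lost without day 1 replicate 2, and that of Nop56 without any 1 of day 1 replicates 1 to 4.

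At day 3, Ltv1 and Gnl3 were lower in the 3-digit libraries, at -0.58 and -0.57, and 0 members were higher, where 8.22% of all genes were called lower and 10.3% higher. At an unadjusted p under 0.05, 1 member was higher and 6 were lower. DESeq2 called 0 higher and 5 lower, beside 14% and 10.7% of all genes. The edgeR count of 2 became 9 without day 3 replicate 1, 1 without day 3 replicate 3 and 4 without day 1 replicate 3. All genes called in those fits were 33.4%, 8.06% and 19.5%. Without day 3 replicate 4 or 5 the 1-digit group holds 1 library, and no count is given for it here. Of the 77 ribosomal proteins, 32 were lower in the 3-digit libraries of day 3 and 0 were higher, with a median of -0.47. The 32 became 49, 17 and 9 without day 3 replicates 1, 2 and 3, where 15.9%, 3.2% and 2.99% of all genes were lower.

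The format difference itself differed between the days for 2 members, where 17.6% of all genes were called. Ltv1, an assembly factor that leaves the small subunit late, was at 50.5 and 52.3 CPM at day 1 where the number had 3 digits and at 30.4, 38.6 and 33.4 CPM where it had 1 digit. At day 3 it was at 32.4, 29 and 26.7 CPM in the 3-digit and 42 and 46.0 CPM in the 1-digit libraries. The order of the formats turned with no overlap on either day, and the interaction was 1.17 on the log2 scale (edgeR adjusted p = 0.00183). For Wdr12 it was 0.67 (edgeR adjusted p = 0.0348), a call lost in 9 of 21 alternative settings. Leaving out either 3-digit library of day 1, day 1 replicate 3 or 5, or day 0 replicate 1 or 3 left 1 member, and leaving out day 3 replicate 1 gave 4.

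**Figure D5:**
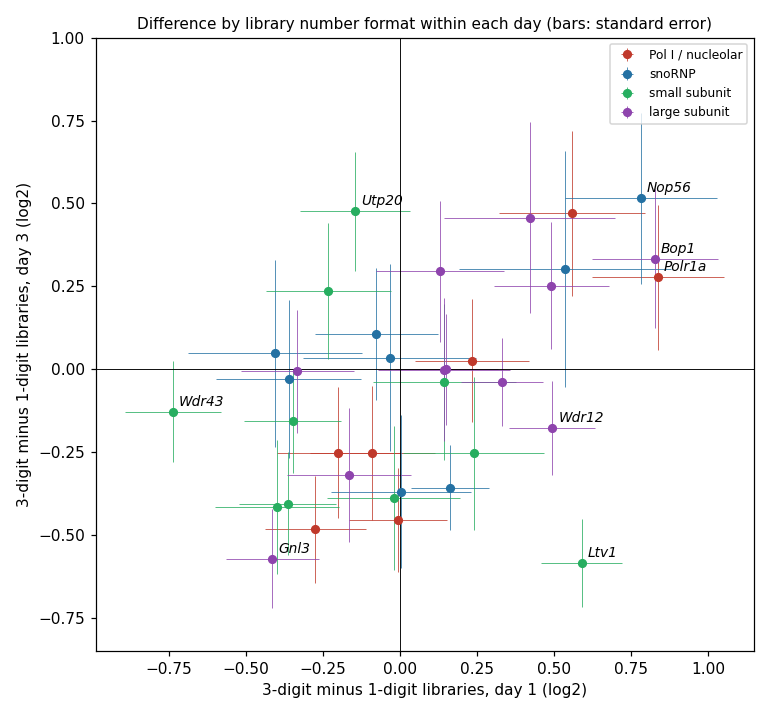
Log2 difference of 3-digit minus 1-digit libraries at day 1 (horizontal) and day 3 (vertical) for the 36 members, coloured by role, with bars for the standard error. Members called on either day and Utp20 are named, and Ltv1 stands apart at 0.59 and -0.58.

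Other markers moved with the days as well. The 3 tubular injury genes summed to 92.0 to 123 CPM at day 0, 870 to 2799 (1-digit) and 5205 to 5526 CPM (3-digit) at day 1, and 3411 to 4527 and 904 to 2402 CPM likewise at day 3. The 6 proliferation markers were within 9.25 to 51.6 CPM in all libraries but the 3-digit ones of day 3, which had 280 to 495 CPM. They were thus low at day 1, where 0 of 6 were called by edgeR or DESeq2 and 0 at an unadjusted p under 0.05. Of 5 neutrophil markers, 4 are in the gene list of the files and summed to 1.26 to 2.07 CPM at day 0 and 19.1 to 346 CPM after injury. The 6 macrophage markers summed to 121 to 191 CPM at day 0, 64.9 to 111 at day 1 and 94.8 to 396 at day 3. Endothelial sums were 171 to 228 CPM at day 0, 225 to 393 at day 1 and 112 to 494 at day 3, and lymphocyte sums were at most 1.77 CPM in any library. Fibroblast and pericyte markers summed to 62.6 to 75.8 CPM at day 0, 94.7 to 312 at day 1 and 333 to 774 at day 3. Thick limb and distal tubule markers summed to 6744 to 9365 CPM at day 0 and 2148 to 5970 CPM after injury. The part of these cells in the members' levels was not tested.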

How the data were processed

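RNA was sequenced from 14 mouse kidney libraries prepared with an Illumina TruSeq kit. The authors deposited 1 table of read counts per gene and library. The submitters' processing notes name Trimmomatic, STAR and build mm10. The deposited counts of the strand-matched column (98.5% to 98.8% of stranded reads) were used as they stand. Entries that name no gene, 29.0% to 38.3% of reads, were left out, and 12485579 to 20476979 reads on genes remained per library. Libraries were grouped by the day in their titles. Replicates differed by more than sampling noise in every pair, the chi-square over its degrees of freedom being 5.94 to 241.

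Genes were filtered by edgeR 4.0.16 (filterByExpr by day), scaled by TMM and fitted with the quasi-likelihood model (R 4.3.3, limma 3.58.1). P-values were Benjamini-Hochberg adjusted over 14300 genes. A fit with 1 term per day and number format gave the within-format values. DESeq2 1.42.0 and other settings are compared in the closing section. The tests were checked on simulated data.

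The members and lists were chosen with earlier results of these data known. Named in full were the most abundant member of each role, the 3 highest and 3 lowest fold changes at each day, the 3 highest and 3 lowest format differences at day 1, Myc and Rn45s. Other members appear where a role or count called for them. Gene positions come from GENCODE for GRCm38, the same assembly as mm10.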

Additional observations from a re-analysis of the deposited data

Results flagged for a closer look

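Dixon's test was applied to 51 groups of 4 or 5 libraries, in which about 1 in 20, or 2.55, would pass by chance, and 3 passed. Bop1 in day 0 replicate 2 stood at 46.4 CPM, apart from 40.8 to 41.3 CPM in the other day 0 libraries. The summed level of the 36 members in day 1 replicate 3 was 2585 CPM, below 2978 to 3122 CPM in the other day 1 libraries and still above all day 0 libraries. Rn45s in day 1 replicate 5 was at 15004 CPM, far above 3235 to 4434 CPM in the other day 1 libraries.

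The difference between library number formats was not the same at day 1 and day 3 for a pair of members, by an interaction term in edgeR with Benjamini-Hochberg adjustment. For Ltv1 the format difference at day 1 exceeded that at day 3 by 1.17 on the log2 scale (adjusted p = 0.00183), and for Wdr12 by 0.67 (adjusted p = 0.0348).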

How the results depend on the processing

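At day 1, 25 to 30 members were called when each library was left out in turn, 25 to 29 of them higher and at most 1 lower, and the main count of 28 became 16 when a log2 fold change of at least 1 was also asked for (11.9% of all genes were then higher). The day 3 count against day 0 (10, all higher) became 16 with total counts without TMM (25.3% of all genes higher), 6 without the filter (13.4%), 19 (16 higher, 3 lower) with number format as a term (26.2% and 22%), 0 with a log2 fold change of at least 1 and 20 (17 higher, 3 lower) when injured libraries of the 1-digit format alone were kept, a setting in which 56.3% of all genes were called, up from 4757 to 8048 genes. The count at day 3 against day 1 (21) became 12 with total counts (3.41% of all genes lower), 13 with only the 2 days compared (2.5%), 2 with a log2 fold change of at least 1 (2.23%) and 10 without the 3 libraries high in Rn45s (1.69%, all genes called going from 2276 to 626). The format count of day 3 (2) became 5 with DESeq2 and 8 without those libraries (24.6% and 14.2% of all genes called), the interaction count (2) became 4 with total counts, 1 without the filter and 5 without those libraries (19.6%, 11.9% and 14.4%), and the 1-digit count at day 3 against day 1 (16) became 8 with total counts and 5 without them (34.8% and 21%). Restriction to 1 format and removal of the Rn45s-high libraries were chosen after seeing the data.

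Leaving out 1 library at a time gave 4 to 12 for day 3 against day 0, 17 to 24 for day 3 against day 1, 2 to 9 and 0 to 9 for the formats at days 1 and 3, 1 to 4 for the interaction, 23 to 28, 9 to 20 and 5 to 20 for the 1-digit comparisons and 2 to 24 for the 3-digit one. All genes called in these fits ranged from 23.3% to 39.7%, 8.87% to 23.5%, 14% to 39.2%, 0.685% to 33.4%, 8.83% to 22%, 48.8% to 60.8%, 36.2% to 56.2%, 19.5% to 35.8% and 1.62% to 17.4% in the same order. An arm left with 1 library was assumed to vary like the others.

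Same-numbered libraries did not deviate together, with r from -0.17 to 0.26 over 13 pairs and 4 over 0.1, so the numbers were not taken as pairs. With the replicate block 28, 5 and 22 members were called in the day comparisons, all higher, all higher and all lower, beside 19.8%, 16.2% and 6.77% of all genes.

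Signs turned for Noc3l at day 1 (-0.024 without the filter, -0.024 with at least 10 counts, -0.17 with the format term, -0.18 in 1-digit libraries, -0.11 to 0.11 leaving out libraries), for Polr1a (-0.0013, -0.0018, -0.0062 with the block, -0.25 and -0.34; -0.16 to 0.12) and for Bop1 (-0.20 with the format term and -0.26 in 1-digit libraries; -0.076 to 0.20). With only 3-digit libraries of the injured days, Bop1 at day 1 was instead at 0.53 and called. At day 3 Polr1a turned to 0.046 with total counts and Nop56 to -0.064 with the format term. The causes were not tested. Total counts without TMM moved the median of all genes by 0.14 at day 3 against day 0 and 0.15 against day 1, and the share of called genes that were higher was 73.8% and 77.9%, compared with 58.5% and 53.6%. A log2 fold change of at least 1 left 2963 of 6020 called genes at day 1 and 2597 of 4757 at day 3. Of those called higher at day 1 it left 26 of 84 other factors and 11 of 72 ribosomal proteins. At day 3 it left 4 of 20 and 7 of 70. All genes called higher were then 11.9% on both days.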
